A study of Homo sapiens with 12 samples.

Results

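The events described here are alternative 5′ splice sites in T-47D cells, pairs of donor sites at the end of one exon that join to the same downstream exon. The deposited splicing table lists 8874 such events. Of these, 2640 (29.7%) had a mean over the 6 RNA libraries of 20 or more reads, both forms counted, and a rarer form that made up at least 5% of all reads. A single library could hold fewer reads. The choice used read totals summed over the 6 RNA libraries and no difference between treatments. Of the events left out, 1982 had a mean under 20 reads and 4252 had enough reads but a rarer form under 5%. At the edge of the rule, an event in FANCB with a mean of 19.83 reads was outside and one in AQP3 with 20.0 was inside, and an event in TNNT1 with a rarer form of 4.98% was outside and one in CEP41 with 5.0% was inside.

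T-47D is an established luminal breast cancer line, labelled wild type, and palbociclib is an inhibitor of the cell-cycle kinases CDK4 and CDK6. Poly(A) RNA was sequenced from 3 cultures treated with 1 µM palbociclib and 3 treated with the solvent DMSO, each for 24 h, and accessible chromatin was measured by ATAC-seq in 3 cultures of each kind. The labels call the cultures replicates of this one line, so the spread given here is between cultures and not between patients or lines.

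A 5′ splice site marks the end of an exon and is first paired with U1 snRNA. U6 snRNA then replaces U1 at the site, while SR proteins and hnRNP proteins bound nearby favour one site or another. Where 2 sites compete, the exon ends either at the upstream site, which gives a short form, or at the downstream site, which gives a long form with extra bases. A length that is a multiple of 3 can keep the reading frame of a coding exon, and other lengths shift it. Whether each alternative part is coding was not determined here.

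The sites themselves can be read for a few members. RefSeq sequence windows around gene starts (GRCh38.p14) held both sites of 26 events, which form 23 distinct pairs. The pairs below are shown because neighbouring sites can be printed on 1 strand of letters and show how close the choices lie. Each runs 5′ to 3′ on the strand of the gene, and capitals mark the first 2 intron bases after each site.
LINC00862, 4 bases apart, chr1:200374011-200374014, minus strand: aagGTagGTaaga
ANGEL2, 4 bases apart, chr1:213015609-213015612, minus strand: ccgGTcaGTaggg
CYB561D2, 4 bases apart, chr3:50350985-50350988, plus strand: cagGCaaGTccct
CCHCR1, 4 bases apart, chr6:31158167-31158170, minus strand: gcgGTtgGTaagg
SNHG8, 6 bases apart, chr4:118278787-118278792, plus strand: tagGTgaaaGTacgt
PRMT7, 12 bases apart, chr16:68311100-68311111, plus strand: cggGTgaggcgctggGTatgc
NUCB2, 20 bases apart, chr11:17276829-17276848, plus strand: cagGTaaggccggtggccgcgcgGTaggt

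In each of the 4-base pairs the GT of the downstream site lies at the 5th and 6th intron bases of the upstream site. CYB561D2 has GC at the upstream site, and the others have GT at both. The next pairs lie too far apart for 1 run and are shown because they have the most reads of the pairs in these windows, a mean of 824.2 per library in HNRNPH1 and 900.3 in SSBP1.
HNRNPH1, 41 bases apart, chr5:179623595-179623635, minus strand, upstream site: tagGTgagt
HNRNPH1, downstream site: acgGTgggt
SSBP1, 93 bases apart, chr7:141738411-141738503, plus strand, upstream site: cagGTgagg
SSBP1, downstream site: tgtGTaggt

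Over all sites that fell in such a window, 58 of 59 short-form sites began with GT and 1 with GC. Among long-form sites these were 28 and 1 of 29. A G at the 5th intron base was present in 48 of 59 short-form sites and 22 of 29 long-form sites. These windows cover gene starts, so the letters describe first exons and not the members as a whole.

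The use of a site was measured as the inclusion level, the percent of the long form after reads are divided by the number of positions that could give them. SSBP1, a mitochondrial single-stranded DNA-binding protein, had inclusion levels of 19.2, 20.14 and 20.99% in DMSO and 19.61, 21.67 and 20.4% with palbociclib. HNRNPH1, an hnRNP protein, had 44.46, 36.77 and 41.15% in DMSO and 38.66, 36.7 and 43.71% with palbociclib. The groups overlapped in both. CCHCR1 mostly used its downstream site, with 96.85, 93.77 and 91.59% in DMSO and 91.7, 74.25 and 88.9% with palbociclib, also overlapping. LINC00862 mostly used the upstream site, with a mean of 5.87% ± 5.43 (SD, n = 3) in DMSO and 7.95% ± 5.11 (SD, n = 3) with palbociclib.

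The 2640 events lie in 1796 genes, of which 1334 hold 1 event each. SNHG17, a host gene of small nucleolar RNAs, holds the most, with 14. They form 2468 distinct pairs of sites, because 321 events share both sites with another event that differs elsewhere in the exon or its partner. Such events share reads and are not independent. Of the 2509 events whose gene has a RefSeq start, 611 (24.4%) have an exon that begins within 1000 bases of it.

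The alternative parts ran from 2 to 4244 bases, with a median of 68.5 bases and quartiles of 22 and 172. The most common distance was 4 bases, with 120 events. Next came 9 bases with 57 events, while 6 and 12 bases had 53 each. Lengths beside these that are not multiples of 3 were rarer, with 25 events at 5 bases, 25 at 7, 14 at 8, 23 at 10 and 24 at 11. A distance of 3 bases, also a multiple of 3, was about as rare, with 28 events. In all, 1064 events (40.3%) had a length that is a multiple of 3, against 34.0% of the 6234 other listed events. By length it was 62.0% of the 308 events of up to 12 bases other than 4, and 44.6% of all 428 events of up to 12 bases with the 4-base events counted. It was 44.7% at 13 to 50 bases, 41.3% at 51 to 150, 34.2% over 150 and up to 500 and 28.9% of the 201 events over 500 bases.

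**Figure D1:**
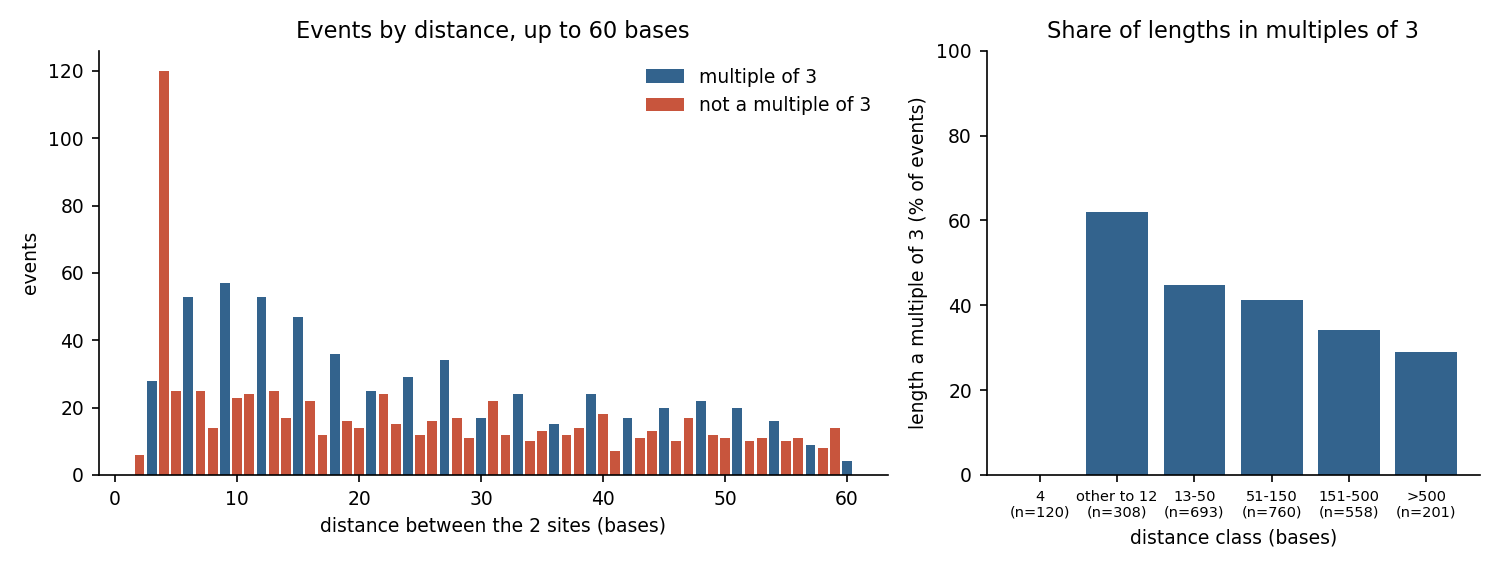
Left, number of events (y axis) at each distance between the 2 sites up to 60 bases (x axis), in blue for multiples of 3 and red for other lengths. Right, percent of events whose length is a multiple of 3 in each length class, with the number of events below each bar. The 4-base distance stands out with 120 events, and the share of multiples of 3 goes from 62.0% in the other short events to 28.9% over 500 bases.

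By inclusion level, the long form was the rarer one in most events. The mean inclusion level in DMSO had a median of 27.8% over events and quartiles of 8.08 and 71.3%. It was under 50% in 1641 events (62.2%). By length, the median was 39.8% at 4 bases, 35.0% at the other lengths up to 12, 38.5% at 13 to 50, 26.6% at 51 to 150, 26.0% over 150 and up to 500 and 11.4% over 500 bases. By frame, it was 33.4% for multiples of 3 and 23.9% for other lengths. Among the 13 to 50 base events it was 46.5% for multiples of 3 and 31.7% for the others, while at 51 to 150 bases the values were 26.8 and 26.1%. These are descriptions over events, since the rarer form entered the choice of events.

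Reads set how finely an event could be measured. The median event had 113.2 reads per library (quartiles 48.17 and 268.7), and the events together had 649127 to 951029 reads per library. The SD of the inclusion level between cultures had a median of 3.61 percentage points in DMSO and 3.50 with palbociclib. All 10 luminal epithelial marker genes stood at 41.9 FPKM or more in every library. Of 8 blood, stromal and endothelial markers 3 were in the expression table, with a summed level of 23.5 to 24.7 FPKM in DMSO and 24.5 to 26.6 FPKM with palbociclib, nearly all from the collagen gene COL1A1. By limma with Benjamini-Hochberg adjustment, every one of 44 genes of S phase fell with palbociclib, as did each of 44 genes of G2 and mitosis. Of all 15869 genes tested, 22.9% fell.

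The difference in mean inclusion level had a median of 0.002 points, and the median size of the difference was 2.46 points. By edgeR's quasi-likelihood test with Benjamini-Hochberg adjustment over the 2640 events, 9 events rose (0.341% of those tested) and 2 fell (0.0758%), 0.417% in all. They lie in 10 genes. At an unadjusted p under 0.05 there were 220 events (8.33%), 116 higher and 104 lower. The levels of the groups did not overlap in 345 events (13.1%), 164 higher (6.21%) and 181 lower (6.86%). An inclusion level that differed by at least 10 points was seen in 289 events. Of these, 118 had groups that did not overlap and 4 passed the test.

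Not all of the 11 calls are equally firm. Those in KAT2A, SF3B1, HSP90B1 and NCBP2 held whichever of the 6 libraries was left out. The calls in FIGNL1 and ANKRD13B were lost without any single library (adjusted p up to 0.286 in both), and that in HNRNPA1 without any but palbociclib replicate 3 (up to 0.111). OS9 lost its call without palbociclib replicate 2 or DMSO replicate 2 or 3 (up to 0.454), and RBM3 without palbociclib replicate 2 or DMSO replicate 3 (up to 0.66). In CD46 both calls were lost without palbociclib replicate 3 or DMSO replicate 1, and that of the 628-base event also without DMSO replicate 2 (up to 0.183 and 0.404). All of these are edgeR p-values adjusted over the 2640 events. When events with a rarer form under 5% were tested too, 1 of the 11 calls remained, in KAT2A, with the log2 odds ratios of the others nearly as before (SF3B1 0.77, HNRNPA1 -0.70). Other methods called fewer or more events: DESeq2 gave 4 higher and 0 lower, limma with voom weights 17 and 7, edgeR over events with a rarer form of at least 10% gave 15 and 7, and the authors' deposited table has 60 and 53 at a false discovery rate of 0.05.

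Of the 11 events that passed, 8 had an alternative part over 150 bases, as did 759 of all members (28.7%). A length that is not a multiple of 3 was found in 10 of 11, and in 1576 of all members (59.7%). By frame, 10 of 1576 (0.635%) passed where the length was not a multiple of 3, and 1 of 1064 (0.094%) where it was. By class, 4 of 201 events over 500 bases rose (1.99% of the class), and between 150 and 500 bases 3 rose and 1 fell of 558 (0.717%). At 51 to 150 bases 2 rose of 760 (0.263%), and 1 fell of the 120 events of 4 bases (0.833%). None passed edgeR's test among the 308 other events up to 12 bases, where 16 had an unadjusted p under 0.05 and neither DESeq2 nor limma with voom weights called any. None passed among the 693 of 13 to 50 bases, where 36 had such a p, DESeq2 called 0 and voom 2. In those classes the groups did not overlap in 12.3 and 10.1% of events, against 21.4% over 500 bases. Whether the length or frame classes differ in their response was not tested.

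**Figure D2:**
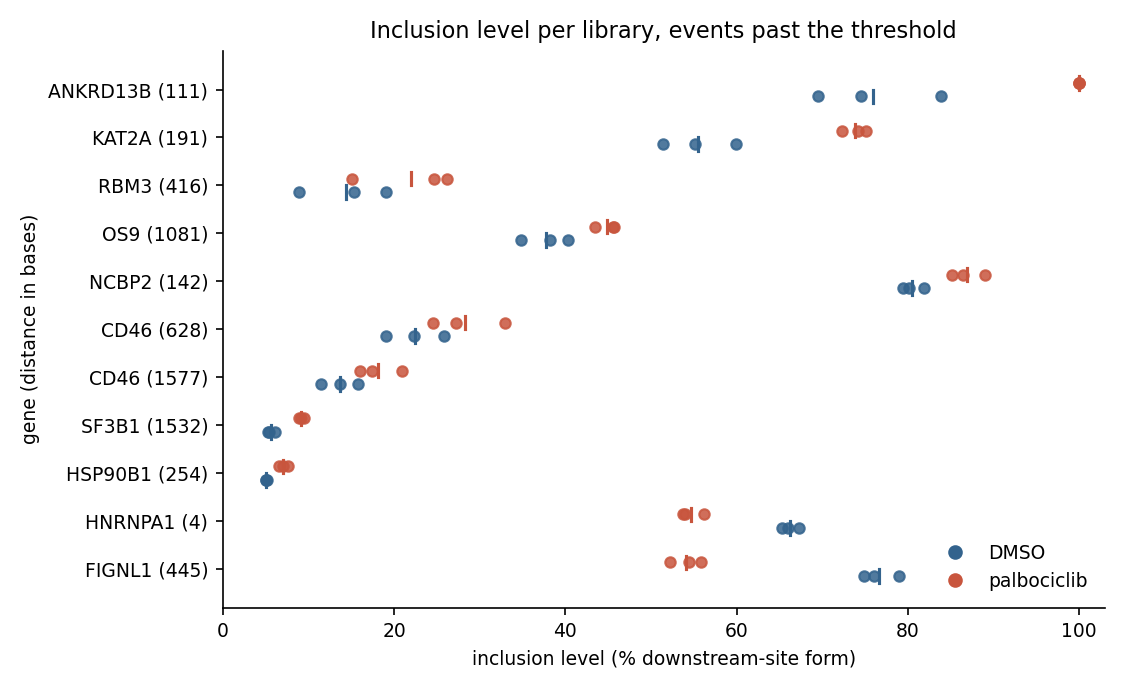
Inclusion level in percent (x axis) of each of the 11 events that passed the edgeR test, named by gene and by the distance between sites in bases (y axis). Points are single libraries, blue for DMSO and red for palbociclib, and short vertical lines are group means (n = 3 each). The groups are separate in 9 events and overlap in RBM3 and in the 628-base event of CD46.

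KAT2A, a histone acetyltransferase of the SAGA and ATAC complexes, showed the clearest change. The 191-base part lies at chr17:42119054-42119244 on the minus strand. Its inclusion level was 55.09, 51.46 and 59.97% in DMSO and 75.17, 74.18 and 72.28% with palbociclib. Every palbociclib library stood above every DMSO library. The odds of the long form rose by 1.19 on the log2 scale (SE 0.17, adjusted p = 2.46e-06 by edgeR). Reads that span the downstream-site junction numbered 159, 180 and 176 in DMSO and 255, 265 and 238 with palbociclib, while reads spanning the upstream-site junction numbered 172, 218 and 134 and then 107, 118 and 127. With palbociclib the downstream junction had more reads, and the upstream junction fewer, in every library than in any DMSO library. The level from junction reads alone was 50.01% ± 6.02 (SD, n = 3) in DMSO and 68.3% ± 2.73 (SD, n = 3) with palbociclib. The RNA level of the gene was 31.4 FPKM ± 0.605 and 33.6 FPKM ± 1.55 (SD, n = 3 each), a log2 change of 0.10 that did not pass limma's test (adjusted p = 0.0949). With quantile normalization KAT2A RNA passed at 0.17 (adjusted p = 0.0086), as it did without palbociclib replicate 3 at 0.14 (adjusted p = 0.0232). With another single library left out, its limma adjusted p was up to 0.253.

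OS9, a lectin of endoplasmic-reticulum-associated degradation, also had well-covered junctions. Its 1081-base part (chr12:57719183-57720263, plus strand) had inclusion levels of 40.34, 38.21 and 34.8% in DMSO and 45.57, 45.66 and 43.5% with palbociclib, with no overlap. The log2 odds ratio was 0.43 (SE 0.10, edgeR adjusted p = 0.0231). Of its long-form reads 46.8% spanned the downstream-site junction, where even coverage of the long form would give 8.39%. The junction thus held more reads than an evenly covered long form would give it, and where this excess arose was not tested. By junction reads the level was 77.2% ± 2.13 in DMSO and 82.0% ± 0.98 with palbociclib (SD, n = 3 each).

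FIGNL1, an ATPase of homologous recombination, had one of the 2 events that fell. Its 445-base part (chr7:50449118-50449562, minus strand) had inclusion levels of 76.06, 74.93 and 79.01% in DMSO and 54.43, 52.2 and 55.79% with palbociclib. The groups were 22.5 points apart and did not overlap. The log2 odds ratio was -1.47 (SE 0.37, edgeR adjusted p = 0.0423). The RNA level of the gene fell too, from 20.8 FPKM ± 0.279 to 6.76 FPKM ± 0.22 (SD, n = 3 each, limma log2 change -1.49). Long-form reads fell from 384, 427 and 331 to 105, 96 and 104, while upstream-site junction reads were 22, 26 and 16 in DMSO and 16, 16 and 15 with palbociclib. Downstream-site junction reads were 23, 28 and 19 and then 1, 7 and 2. Over the 6 libraries they made up 5.53% of long-form reads, where even coverage would give 18.2%. By junction reads the level was 52.4% ± 1.66 in DMSO and 16.0% ± 12.8 with palbociclib (SD, n = 3 each).

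ANKRD13B, an ankyrin repeat protein, has few reads, with a mean of 42.67. The inclusion level of its 111-base part (chr17:29608000-29608110, plus strand) was 69.5, 83.83 and 74.51% in DMSO and 100% in all 3 palbociclib libraries (edgeR adjusted p = 0.0494). Short-form reads numbered 6, 5 and 5 in DMSO and 0 in every palbociclib library. With 0 short-form reads beside 125 long-form reads, a floor of 3 counts over the group allows a short share of up to 2.4%, against 12.2% of reads in DMSO, and the odds of the long form were at least 5.8-fold higher. This bound covers counting error in the palbociclib reads only, takes the 16 short-form reads of DMSO as they stand, and treats reads as independent molecules.

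CD46, a complement regulator on the cell surface, holds 2 of the events that rose. They share the upstream site and its reads, so they are not independent. The 1577-base part (chr1:207767196-207768772, plus strand) had inclusion levels of 11.52, 13.69 and 15.74% in DMSO and 16.05, 17.39 and 20.97% with palbociclib (log2 odds ratio 0.49, SE 0.10, edgeR adjusted p = 0.0037). The lowest palbociclib library stood just above the highest DMSO library. Only 0.0621% of its long-form reads spanned the downstream-site junction, 17 reads in 6 libraries. The 628-base part had 19.11, 22.38 and 25.89% in DMSO and 24.57, 27.28 and 32.96% with palbociclib (log2 odds ratio 0.45, edgeR adjusted p = 0.0291), and there the groups overlapped. Its downstream-site junction had 9737 reads, 45.5% of the long-form reads, where even coverage would give 13.6%. Where this excess of junction reads arose was not tested. By junction reads the levels were 50.6% ± 5.73 in DMSO and 55.6% ± 5.43 with palbociclib (SD, n = 3 each).

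SF3B1, a core protein of the U2 snRNP, had a 1532-base part (chr2:197418896-197420427, minus strand) with inclusion levels of 5.23, 5.44 and 6.13% in DMSO and 9.47, 9.17 and 8.94% with palbociclib. The groups did not overlap, and the log2 odds ratio was 0.77 (SE 0.12, edgeR adjusted p = 7.12e-06). HSP90B1, an endoplasmic reticulum chaperone, had a 254-base part (chr12:103943320-103943573, plus strand) with 5.11, 5.06 and 5.02% in DMSO and 6.6, 7.0 and 7.6% with palbociclib (log2 odds ratio 0.51, SE 0.08, edgeR adjusted p = 3.46e-05). NCBP2, the small subunit of the nuclear cap-binding complex, had a 142-base part (chr3:196939251-196939392, minus strand) with 81.89, 79.45 and 80.09% in DMSO and 85.2, 86.49 and 89.03% with palbociclib (log2 odds ratio 0.69, SE 0.13, edgeR adjusted p = 0.000479). Total long-form reads in SF3B1 went from 742, 1067 and 759 to 1528, 1556 and 1689, and few of them in these 3 events crossed the junction of the downstream site. The downstream-site junction took 1.08% of long-form reads in SF3B1, 0.976% in HSP90B1 and 0.4% in NCBP2, where even coverage would give 6.07, 28.05 and 41.1%. In HSP90B1 those junction reads numbered 29, 17 and 13 in DMSO and 12, 20 and 14 with palbociclib.

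RBM3, a cold-inducible RNA-binding protein, had a 416-base part (chrX:48575668-48576083, plus strand) with inclusion levels of 19.05, 15.31 and 8.85% in DMSO and 26.13, 24.72 and 15.14% with palbociclib. The groups overlapped, and in both replicate 3 stood well below the rest (log2 odds ratio 0.77, SE 0.17, edgeR adjusted p = 0.0152). Leaving out 1 library moved the RBM3 ratio between 0.41, without DMSO replicate 3, and 1.09. DESeq2 gave an adjusted p of 0.998 and edgeR with robust empirical Bayes 0.783. Of RBM3 long-form reads 6.81% spanned the downstream-site junction, where even coverage would give 19.2%. By junction reads the RBM3 level was 6.71% ± 4.59 in DMSO and 9.05% ± 5.29 with palbociclib (SD, n = 3 each), also overlapping. HNRNPA1, an hnRNP protein that represses splice sites, had the only 4-base event that passed (chr12:54284318-54284321, plus strand). Its inclusion level was 67.33, 65.28 and 65.98% in DMSO and 53.77, 54.03 and 56.22% with palbociclib (log2 odds ratio -0.70, SE 0.16, edgeR adjusted p = 0.0152). The groups were apart, but no read in any of the 6 libraries spanned the downstream-site junction, where even coverage would give 96.1% of long-form reads. A part of 4 bases is too short to hold a read, so the long form rests on reads that cross the upstream boundary. This inclusion level therefore does not show that the downstream site was used. HNRNPA1 has near-identical copies elsewhere in the genome, and how reads from them were assigned is not given in the sources used here. The gene's RNA level fell from 650.7 FPKM ± 28.3 to 482.8 FPKM ± 3.92 (SD, n = 3 each, limma adjusted p = 2.97e-05).

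Junction support differed widely among the members as a whole. Long-form reads include reads that lie within the alternative part or cross its upstream boundary, and only reads that span the downstream-site junction show that the site was spliced. If reads fell evenly on the long form, the median event would have 59.1% of them on that junction, while the observed median was 25.3%. The observed and even-coverage medians were 80.4 and 96.1% at 4 bases, 53.6 and 78.0% at 13 to 50 bases, 7.72 and 29.2% over 150 and up to 500 bases and 2.51 and 10.1% over 500 bases. In 1268 events (48.0%) the junction had under 50% of its even-coverage share, and in 246 (9.32%) it had no read at all. In 1629 events (61.7%) the rarer of the 2 junctions had at least 5% of junction reads. Of those, 711 (43.6%) had a length that is a multiple of 3.

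**Figure D3:**
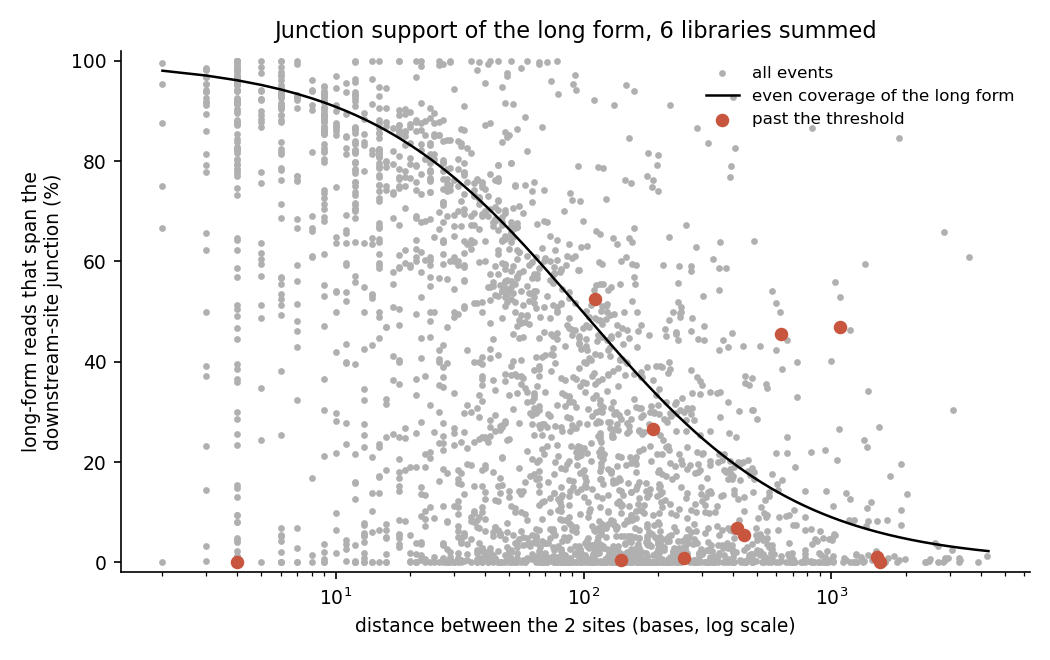
Percent of long-form reads that span the downstream-site junction (y axis) against the distance between sites in bases on a log scale (x axis), summed over 6 libraries. Grey points are the 2640 events, red points the 11 that passed the edgeR test, and the line is the share that even coverage of the long form would give. Of the red points 7 lie under 50% of the line's value, among them SF3B1, HSP90B1, NCBP2 and the 4-base event of HNRNPA1 at 0.

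With junction reads alone, edgeR's test over the same events called 0 higher and 1 lower (0.0379%), with 165 at an unadjusted p under 0.05. None of the 11 events passed there. Over the 1302 events with a mean of at least 20 junction reads per library and a rarer junction of at least 5%, 2 rose and 1 fell, and KAT2A was 1 of the 2 (log2 odds ratio 1.11, SE 0.22, edgeR adjusted p = 0.0226). Of the 10 with any downstream-site junction read, 7 kept the direction of their change and 3 did not. KAT2A gave a log2 odds ratio of 1.11 (SE 0.28) and OS9 one of 0.42 (SE 0.17), close to their values with all reads. HSP90B1 gave -0.74 (SE 0.28), the 1577-base event of CD46 -0.75 (SE 0.74) and NCBP2 -0.02 (SE 0.40). The 1 event that fell by junction reads is in ODF2, a centrosome and cilium protein, and it is named after its values were seen. Its 156-base part had 24, 12 and 12 downstream-site junction reads in DMSO and 0, 1 and 1 with palbociclib (log2 odds ratio -3.83, edgeR adjusted p = 0.00124). With all reads its inclusion level was 8.37, 6.67 and 9.74% in DMSO and 4.3, 3.81 and 6.75% with palbociclib (edgeR adjusted p = 0.103). That p was 0.00863 without palbociclib replicate 3 and up to 0.477 with another single library left out. ODF2 RNA fell from 33.8 to 19.3 FPKM.

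**Figure D4:**
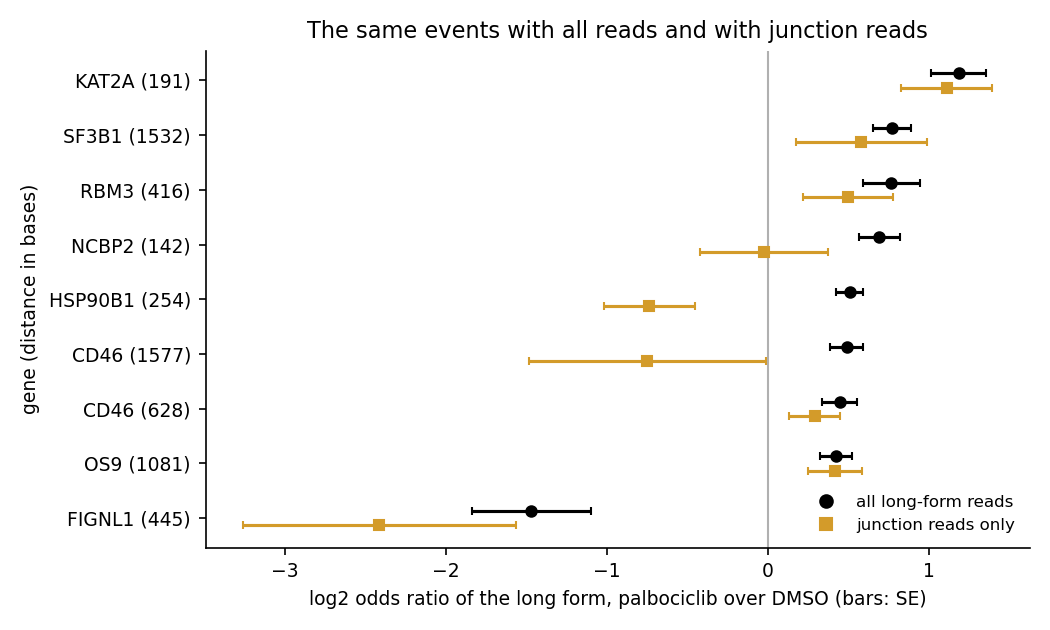
Log2 odds ratio of the long form, palbociclib over DMSO (x axis, bars are SE), for 9 of the 11 events that passed the edgeR test, by gene and distance in bases (y axis). Black circles use all long-form reads and yellow squares junction reads alone. ANKRD13B is left out because its short form had 0 reads with palbociclib, and the HNRNPA1 event because its downstream-site junction had 0 reads. KAT2A and OS9 gave like values both ways, and HSP90B1, NCBP2 and the 1577-base event of CD46 lie on the other side of 0 with junction reads.

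Part of this overlaps with retained introns, which the same method lists as a separate kind of event. The alternative part lay inside a listed retained intron in 339 events (12.8%), and there both kinds of event count the same reads. Those events had a median junction share of 5.13%, against 28.7% in the 2301 others. They passed the test in 1.18% of cases, against 0.304% of the others. 4 of the 11 events are of this kind, in SF3B1, HSP90B1 and CD46. Retention of the SF3B1 intron was 5.67, 6.11 and 6.75% in DMSO and 10.0, 9.71 and 9.53% with palbociclib (edgeR adjusted p = 7.5e-06). In HSP90B1 it was 7.34, 7.42 and 7.1% and then 9.26, 9.62 and 10.21% (edgeR adjusted p = 2.11e-05). The CD46 intron went from 12.02% ± 1.97 to 15.6% ± 2.32 (SD, n = 3 each, edgeR adjusted p = 0.00684). Over the 291 retained introns that cover an alternative part, 7 rose and 1 fell. Of all 4565 retained introns 1.4% passed, 1.1% higher and 0.307% lower. How much of the change in the alternative sites comes from whole retained introns was not tested.

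The largest differences that did not pass the test are given next. Their events had means of 51.8 (ODF2L) to 121.5 (CDK16) reads per library, where the median event had 113.2. Among events with at least 50 reads and groups that did not overlap, SLC12A4, a potassium-chloride cotransporter, had inclusion levels of 100, 61.48 and 64.13% in DMSO and 44.82, 47.55 and 38.53% with palbociclib. Its short form rests on 0 to 11 reads per library and its downstream-site junction on none. NUCB2, a calcium-binding nucleobindin, has a second pair of sites 4 bases apart with full junction support. That event had 60.23, 65.47 and 70.11% in DMSO and 41.54, 52.7 and 38.19% with palbociclib (edgeR adjusted p = 0.201). Its downstream-site junction held 97.2% of long-form reads, with 52, 71 and 60 junction reads in DMSO and 48, 48 and 36 with palbociclib. Upstream-site reads there were 33, 37 and 25 and then 69, 44 and 56.

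CDK16, a cyclin-dependent kinase, had 61.99, 54.92 and 69.86% in DMSO and 26.86, 47.27 and 49.55% with palbociclib at sites 38 bases apart (edgeR adjusted p = 0.178). Its groups were apart and its junction reads gave 59.1% ± 9.81 and 35.4% ± 10.2 (SD, n = 3 each). RPL23AP7, a ribosomal protein pseudogene whose reads may belong to its parent gene, had means of 49.4% and 28.6%. On the higher side DHFR2, a dihydrofolate reductase, had 42.35, 65.46 and 60.08% in DMSO and 69.04, 80.27 and 91.0% with palbociclib (edgeR adjusted p = 0.269). ZNF493, a zinc finger gene, and ODF2L, a relative of ODF2, had means of 69.0 and 89.7% and of 32.9 and 52.2%, both with no downstream-site junction read. SEMA4G, a semaphorin, had 50.54, 41.63 and 60.8% in DMSO and 65.98, 76.4 and 65.4% with palbociclib. These events were picked as the largest differences with groups apart, so that they are apart is no result.

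Of the most-read events in each length class, that in HSP90B1 rose, as given above, and the other 5 did not pass. SERPINA6, the corticosteroid-binding globulin gene, had the most reads, 39310 per library, and inclusion levels of 3.36, 3.81 and 3.51% in DMSO and 3.26, 3.41 and 3.81% with palbociclib, while its RNA rose from 1350 to 2064 FPKM (adjusted p = 5.82e-06 by limma). XBP1, a transcription factor of the unfolded protein response and a luminal marker, had 4.89, 5.53 and 5.61% and then 5.3, 4.64 and 5.12% at sites 15 bases apart. TAF15, an RNA-binding protein of the FET family, had 87.65, 87.76 and 88.93% and then 87.54, 89.82 and 90.72% at sites 9 bases apart. The groups overlapped in all 3, although by junction reads XBP1 was at 0.98% ± 0.06 in DMSO and 1.14% ± 0.08 with palbociclib (SD, n = 3 each, edgeR adjusted p = 0.894), without overlap. GAS5, another host gene of small nucleolar RNAs, had means of 5.44 and 5.49% at sites 4 bases apart, with no downstream-site junction read. P4HB, a protein disulfide isomerase, had 1.11% ± 0.20 and 1.08% ± 0.04 (SD, n = 3 each) at sites 686 bases apart.

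Splicing factors were themselves members. Of the list of U1 snRNP and associated factors, 4 events lie in 3 genes, and none passed edgeR's test, with 1 at an unadjusted p under 0.05, 0 called by DESeq2 and 1 by limma with voom weights, in TIA1. TIA1, which helps U1 bind weak sites followed by U-rich sequence, had a 133-base part with inclusion levels of 16.9, 16.32 and 17.16% in DMSO and 25.55, 18.21 and 27.55% with palbociclib (edgeR adjusted p = 0.152). The groups were apart, and limma with voom weights gave an adjusted p of 0.0144. By junction reads TIA1 had 9.94% ± 1.37 and 19.4% ± 3.84 (SD, n = 3 each, edgeR adjusted p = 0.156). TIA1 passed in the junction-read fit over 1302 events (log2 odds ratio 1.11, SE 0.23, edgeR adjusted p = 0.0325), among events with a rarer form of at least 10% (0.0397), and without palbociclib replicate 2 (0.0369). With another single library left out, the edgeR adjusted p of this event was up to 0.642. Its second event, 6 bases long, had 5.41 and 4.41%. Of the SR proteins, 3 genes hold 1 event each and none passed by edgeR, DESeq2 or voom, with 1 at an unadjusted p under 0.05. SRSF5 had 11.91, 12.18 and 12.4% in DMSO and 10.6, 9.47 and 10.27% with palbociclib (edgeR adjusted p = 0.481), and SRSF1 had 5.72 and 6.08%.

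Of the hnRNP proteins, 11 events lie in 4 genes, 7 of them in HNRNPA1, and 1 passed, where 0.417% of all members did. A 152-base event in HNRNPH1, named after its values were seen, had 76.05, 80.13 and 79.63% in DMSO and 83.79, 83.69 and 82.77% with palbociclib (edgeR adjusted p = 0.0848). Its groups were apart, with 12968 downstream-site junction reads. HNRNPC had 23.57, 25.38 and 25.19% in DMSO and 22.31, 22.39 and 21.44% with palbociclib at sites 39 bases apart (edgeR adjusted p = 0.444). Its groups were apart by a small margin, with 8235 downstream-site junction reads. HNRNPH3 had 70.85, 68.72 and 64.82% and then 79.0, 71.91 and 69.1% at sites 45 bases apart, which overlapped (log2 odds ratio 0.37, edgeR adjusted p = 0.201). The HNRNPH3 ratio was 0.16 without palbociclib replicate 1 (edgeR adjusted p = 0.844) and 0.53 without palbociclib replicate 3 (0.00694). Limma with voom weights called both, with an adjusted p of 0.0136 in HNRNPC and 0.0125 in HNRNPH3. The U5 and U6 factors and the proteins of the U11/U12 minor spliceosome held no member.

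Most of the listed splicing factor genes fell in RNA level with palbociclib. Of 78 genes tested by limma on log2(FPKM + 1), 45 fell and 8 rose, with a median change of -0.22, where 43.7% of all genes tested passed and their median was 0.002. Of 19 U1 factors 10 fell and 5 rose. SNRPG and SNRPD1, proteins of the Sm ring, fell from 164.3 FPKM ± 6.01 to 102.4 FPKM ± 3.52 and from 63.2 FPKM ± 1.35 to 39.3 FPKM ± 1.72 (SD, n = 3 each). LUC7L3, a U1-associated protein, rose from 162.9 FPKM ± 1.45 to 205.3 FPKM ± 8.50, and TIA1 rose from 49.1 FPKM ± 0.939 to 60.4 FPKM ± 0.834. Of 21 U5 and U6 factors 13 fell and none rose, among them LSM5 (log2 change -0.79) and LSM4 (-0.77), proteins of the ring that binds U6.

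Of 13 SR proteins 7 fell and 1 rose. SRSF7 (log2 change -0.64) and SRSF2 (-0.53) fell most, and SRSF5 rose by 0.13. The call in SRSF5 was lost by limma without palbociclib replicate 2 or 3 (adjusted p = 0.066 and 0.0581) or DMSO replicate 2 or 3 (0.0828 and 0.0612). Of 18 hnRNP proteins 13 fell and 1 rose, with HNRNPA2B1 at -0.57 and HNRNPD at -0.56, while HNRNPH2 rose by 0.31. Of 7 U11/U12 proteins 2 fell, SNRNP25 (-0.81) and SNRNP48 (-0.27), and ZRSR2 rose by 0.23. No factor fell by more than 0.81. In bulk RNA, fewer cells of a state and less RNA per cell cannot be told apart. Whether these levels bear on the events was not tested.

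**Figure D5:**
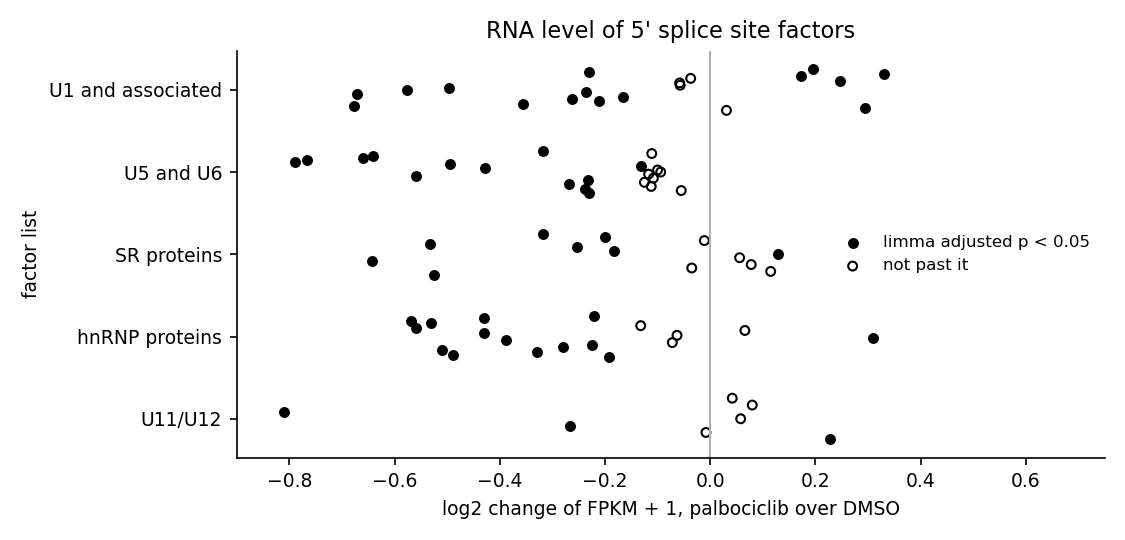
Change in RNA level of each of 78 splicing factor genes, log2 of FPKM + 1, palbociclib over DMSO (x axis), grouped by list (y axis, with points spread vertically for legibility). Filled points passed limma's test at an adjusted p under 0.05 and open points did not. The points run from -0.81 to 0.33, with 45 filled on the lower side and 8 on the higher side.

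Of 1789 host genes tested by limma, 422 rose (23.6%) and 475 fell (26.6%), 50.1% together. Of all genes tested 43.7% passed, 20.9% higher and 22.9% lower. In 63 host genes RNA fell by at least 1 on the log2 scale, and in 0 it rose by as much. Those 63 genes hold 99 members, of which 1 (1.01%) passed the splicing test, in FIGNL1, and 18 (18.2%) had groups that did not overlap. Over all members these shares were 0.417% and 13.1%. In SMC4, a condensin subunit, RNA fell from 171.6 to 52.8 FPKM while the inclusion level of its 396-base part was 5.11, 5.98 and 4.82% in DMSO and 5.31, 5.37 and 5.31% with palbociclib.

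Other lowered cell-cycle genes hold members too. In POLE, a replicative DNA polymerase whose RNA fell from 36.4 to 14.1 FPKM, the 629-base event had 16.2% ± 3.27 and 12.9% ± 1.36 (SD, n = 3 each), and the groups overlapped. A second POLE event, 47 bases long and named after its values were seen, had 21.5% ± 1.61 and 27.7% ± 2.63 (SD, n = 3 each) without overlap (edgeR adjusted p = 0.861). In LIG1, a DNA ligase whose RNA fell from 18.9 to 3.33 FPKM, the 1003-base event had 45.48, 38.9 and 31.08% in DMSO and 50.97, 48.85 and 49.7% with palbociclib, which did not overlap (edgeR adjusted p = 0.378). In NCAPG, another condensin subunit, the groups overlapped and the palbociclib libraries held only 3 long-form reads each. Of 14 members in S phase genes and 7 in G2 and mitosis genes none passed with all reads by edgeR, DESeq2 or voom, and 1 in each list had an unadjusted p under 0.05. With 0.417% of all members passing, a count of 0 in lists of this size says nothing particular to them.

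Accessible chromatin was measured over few of these parts. An ATAC-seq peak overlapped the alternative part in 241 events (9.13%), and none of the 11 events that passed is among them. The peaks number 186, of which 4 rose and 21 fell by edgeR with Benjamini-Hochberg adjustment, where 5.41% and 6.46% of all peaks did. Their median log2 change was -0.04, against 0.004 for all peaks. At DHFR2 the peak had a log2 change of -0.01 (adjusted p = 0.975) and at ZNF493 one of 0.06 (adjusted p = 0.659).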

How the data were processed

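RNA reads were trimmed, aligned and quantified by the authors with fastp 0.23.2, STAR 2.7.10b and Salmon 1.10.2 on GRCh38, per the submitters' processing notes. The layout of the deposited splicing tables is that of rMATS, and its version, annotation and strand setting are not given in the sources used here. They hold junction and exon-body read counts per library, and the inclusion level as a fraction (given here in percent), and each p-value and false discovery rate is the authors' own. Inclusion levels recomputed from the deposited counts differed by at most 0.0005. The deposited expression table holds FPKM, and the authors' deposited DESeq2 1.44.0 table holds log2 fold changes and test scores. ATAC peak counts are deposited raw counts, made with MACS3 and featureCounts per the submitters' processing notes. They total 12830062 to 18250496 per library.

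Event counts were tested with edgeR 4.0.16 (R 4.3.3), quasi-likelihood, with a term per library, one for the long form and its interaction with treatment, and Benjamini-Hochberg adjustment over all 2640 events at 0.05. Retained introns were fitted likewise. RNA levels were tested with limma 3.58.1 on log2(FPKM + 1) for genes with a mean of at least 0.5 FPKM, which understates changes of low genes, and peaks with edgeR and TMM. DESeq2 1.42.0 served as an alternative. The edgeR fit of events and the limma fit were also run on data simulated from their own models. Such runs cannot show that the models suit these data. Members and lists were chosen with earlier results of these data known. Events named are those past the threshold, the most-read in each length class, the 5 largest differences each way (mean of at least 50 reads, groups apart), the 2 most-read per gene list, and for factor lists the 2 largest changes each way. P-values weigh each change against the spread between cultures, which the fits estimate partly from the other events, genes or peaks. When events with a rarer form under 5% were added, the SE of SF3B1 went from 0.12 to 0.22 at the same log2 odds ratio of 0.77.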

Additional observations from a re-analysis of the deposited data

How the results depend on the processing

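Of the 11 events, the calls in KAT2A, SF3B1, HSP90B1 and NCBP2 held when any 1 library was left out (highest edgeR adjusted p 0.000649, 0.000649, 0.00979 and 0.0401), and the other 7 were lost in at least 1 such fit. Leaving out 1 library gave 6 to 13 events higher and 0 to 7 lower, with 0 lower without DMSO replicate 2 or 3, 1 without palbociclib replicate 2 or DMSO replicate 1, and 7 without palbociclib replicate 3. Against 9 higher and 2 lower, DESeq2 gave 4 and 0, limma with voom weights 17 and 7, no filter on the rarer form 3 and 0, and a rarer form of at least 10% gave 15 and 7. Robust empirical Bayes gave 1 lower and a fit with all 5 event types 4 lower. The authors' deposited table has 60 higher and 53 lower at its false discovery rate of 0.05, all 11 among them. Without the filter on the rarer form, only 1 of the 11 remained, that in KAT2A.

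The replicate numbers did not pair the libraries: same-number correlations of the A5SS log2 odds were -0.009, -0.067 and 0.022, and 1 of 6 libraries correlated best with its own number. A fit with the replicate block called 16 higher and 8 lower, with all 11 among them. It also put HNRNPH3 (adjusted p 0.0198) and ODF2 (0.0256) past the threshold.

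The junction-read alternatives were chosen after seeing the data. They gave 0 higher and 1 lower, and 2 higher and 1 lower over the 1302 events whose rarer junction had at least 5% and a mean of at least 20 junction reads. The direction turned with junction reads in HSP90B1 (-0.735), NCBP2 (-0.024), the 1577-base event of CD46 (-0.748), XBP1 (0.229), P4HB (0.61) and SRSF1 (-0.147). Events near 0 changed sign elsewhere: GAS5 was -0.008 with voom and -0.001 with all 5 types, and SMC4 -0.006 with voom. With 1 library left out, GAS5 ranged from -0.068 to 0.098, SMC4 from -0.059 to 0.108, NCAPG from -0.225 to 0.32, SERPINA6 from -0.095 to 0.024 and P4HB from -0.149 to 0.105. The RNA change of RBM3 ranged from -0.311 to 0.13, positive without palbociclib replicate 1 (0.048) or DMSO replicate 3.

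Retained introns over alternative parts gave 4 higher by DESeq2, and 5 to 6 higher and 0 to 2 lower with 1 library left out. Peaks gave 2 higher by DESeq2, 2 to 4 higher and 14 to 24 lower with 1 library left out, and 10 higher and 43 lower within 1000 bases. Host genes gave 344 to 398 higher and 406 to 434 lower with 1 library left out.

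Read depth differs among events: the lower quartile had 48.17 reads per library, and the limit of detection at that depth was not measured.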
